A study of Mus musculus with 33 samples.

Results

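The genes described are 10 acute-phase and inflammatory genes of the mouse: Saa3 and Lcn2, which encode secreted acute-phase proteins, the cytokine genes Tnf, Il1b, Il6, Il11, Lif and Il33, the interleukin-33 receptor gene Il1rl1, and Ptgs2, which encodes cyclooxygenase-2. They were taken by name from a table of 17982 genes, in which all 10 are listed, and 9 of the 10 are among the 13438 genes that passed the filter on low counts. Saa3 did not pass it. The study turned mouse tail-tip fibroblasts into osteoblast-like cells with a lentivirus carrying a transcription factor gene and measured their poly-A RNA. The table holds 3 groups of 3 libraries each.

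The fibroblast group is passaged tail-tip fibroblasts of Col2.3GFP mice, in which a fragment of a collagen type I promoter drives green fluorescent protein (GFP) in cells of the osteoblast lineage. The iOB group (induced osteoblasts) is such fibroblasts after the virus, which was washed out after 24 hours, a split on day 3 and osteogenic medium from day 5. The calvarial-OB group is progenitor cells of the skull cap taken through osteoblast differentiation. A further group, iOB GFP+, holds GFP-positive cells sorted from iOB cultures and was used here only through the authors' deposited table of its comparison with fibroblasts. The labels name no group that received only virus or only medium, do not state the day of harvest, and call the calvarial-OB libraries a separate dataset; their origin and that dataset cannot be told apart. Nothing in them says that replicates are separate cultures or animals, so the p-values measure only the spread between these libraries.

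Total counts ran from 5646299 to 15023771 per library, and log2 profiles of libraries of a group correlated at 0.967 to 0.991. The osteoblast markers rose in both osteoblast groups against fibroblasts, 11 of 11 in each, as did 18 of 18 macrophage markers, among them Csf1r, the receptor of the macrophage growth factor. Of all genes tested, 22.7% were called higher in iOB and 28.4% in calvarial-OB. The 18 macrophage markers summed to 43.3 to 93.7 CPM (counts scaled to a common library total) in fibroblast libraries, 2735 to 4414 in iOB and 4177 to 7785 in calvarial-OB. In fibroblasts, Fcgr1 and Aif1 were at 0 in library 2 and the other markers were above 0 in every library. In a bulk culture, fewer cells of a type and less RNA per cell cannot be told apart. In addition, 2 libraries stood apart for the genes described here. Fibroblast library 1 was high for Saa3, Lcn2 and Lif, and calvarial-OB library 1 was high for Tnf, Il1b and Il6. Results that rest on them are given with and without them.

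Acute-phase proteins are secreted when interleukin-6, interleukin-1 and tumor necrosis factor (TNF) reach a cell and its NF-kB, C/EBP and STAT3 transcription factors are activated. Interleukin-6, interleukin-11 and leukemia inhibitory factor (LIF) all signal through the shared receptor chain gp130, while interleukin-33 signals through its receptor ST2 and the accessory protein shared with interleukin-1. In bone, TNF and interleukin-1 promote osteoclast formation, and LIF, interleukin-11 and prostaglandin E2, the product of the cyclooxygenase-2 pathway, act on osteoblasts.

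The sequences before the start sites of Saa3, Lcn2, Tnf and Il6 are shown because these are 4 of the 5 members whose level in a single library departed most from the rest of its group. Each is the 250 bases before the RefSeq start in GRCm38.p6, printed 5′ to 3′ on the gene's own strand: Saa3 at chr7:46715677-46715926 (minus strand), Lcn2 at chr2:32387740-32387989 (minus), Tnf at chr17:35202008-35202257 (minus) and Il6 at chr5:30012864-30013113 (plus). Capitals mark the letters GGG and CC with 5 bases of any kind between them (NF-kB), TTGCNNAA (C/EBP), TGANTCA (AP-1) or TATAAA (the TATA box), searched on both strands.
Saa3: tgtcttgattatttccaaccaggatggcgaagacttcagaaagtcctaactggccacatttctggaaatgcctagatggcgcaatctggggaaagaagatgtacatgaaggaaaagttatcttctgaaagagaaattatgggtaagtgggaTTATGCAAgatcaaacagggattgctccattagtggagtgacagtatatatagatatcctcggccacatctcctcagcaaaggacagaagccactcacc
Lcn2: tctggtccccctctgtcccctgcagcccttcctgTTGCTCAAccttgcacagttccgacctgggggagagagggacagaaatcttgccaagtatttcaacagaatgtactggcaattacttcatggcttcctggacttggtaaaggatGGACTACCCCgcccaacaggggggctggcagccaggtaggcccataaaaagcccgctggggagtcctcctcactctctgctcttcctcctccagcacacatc
Tnf: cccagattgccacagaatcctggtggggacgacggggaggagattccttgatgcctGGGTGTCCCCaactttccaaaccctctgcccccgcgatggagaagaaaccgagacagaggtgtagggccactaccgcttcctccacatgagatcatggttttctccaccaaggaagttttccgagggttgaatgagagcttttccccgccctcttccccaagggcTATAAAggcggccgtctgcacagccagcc
Il6: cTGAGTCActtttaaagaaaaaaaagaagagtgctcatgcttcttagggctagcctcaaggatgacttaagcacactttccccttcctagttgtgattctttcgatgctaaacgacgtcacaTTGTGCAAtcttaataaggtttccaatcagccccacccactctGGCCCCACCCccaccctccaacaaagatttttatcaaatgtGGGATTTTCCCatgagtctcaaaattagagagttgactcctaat
Saa3 holds a C/EBP match on the opposite strand, 99 to 92 bases before the start. Lcn2 holds an NF-kB match, also on the opposite strand, 102 to 93 and a C/EBP match 216 to 209 bases before it. Tnf holds an NF-kB match that reads on both strands, 194 to 185 bases before the start, and a TATA box at 29 to 24. Il6 holds 3 NF-kB matches, of which 2 overlap by all but 1 base, a C/EBP match 128 to 121 and an AP-1 match 249 to 243 bases before the start. Over 32851 promoter windows of the same length, 45.8% held the NF-kB letters, 9.56% those of C/EBP, 6.75% those of AP-1 and 12.4% TATAAA. The STAT letters TTCNNNGAA, present in 7.02% of windows, were found in none of the 10 genes' windows. A match is a string of letters and says nothing of whether a factor binds there.

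Across the 9 members tested, 3 rose and 2 fell in iOB against fibroblasts, where 43.3% of all 13438 genes tested were called, 22.7% higher and 20.6% lower (edgeR quasi-likelihood test, Benjamini-Hochberg adjusted p below 0.05). Those that rose were Tnf, Il1b and Il33, and those that fell were Ptgs2 and Il1rl1. In calvarial-OB against fibroblasts 4 rose and 3 fell, against 55.8% of all genes called, 28.4% higher and 27.4% lower: the same 5 in the same directions, with Il6 added to those higher and Il11 to those lower. Between the osteoblast groups only Ptgs2 passed the test, higher in iOB, where 48.8% of all genes were called, 24.7% higher and 24.1% lower. With so many genes called in these comparisons, the number of members called is a description only. The same holds for the counts of each gene list below. The median log2 fold change of the 9 members was 0.26 in iOB and 0.11 in calvarial-OB against fibroblasts, beside −0.04 and 0.02 for all genes. With fibroblast library 1 and calvarial-OB library 1 both left out, a choice made after their values were seen, 5 members rose and 2 fell in iOB, 6 rose and 3 fell in calvarial-OB, and 3 were higher and 0 lower in iOB than in calvarial-OB. Over all alternatives tried, the genes called reached 6957, 8003 and 7351 in the 3 comparisons, against 5820, 7494 and 6561 in the main fit. Member and list counts under this choice are thus also a description only.

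**Figure D1:**
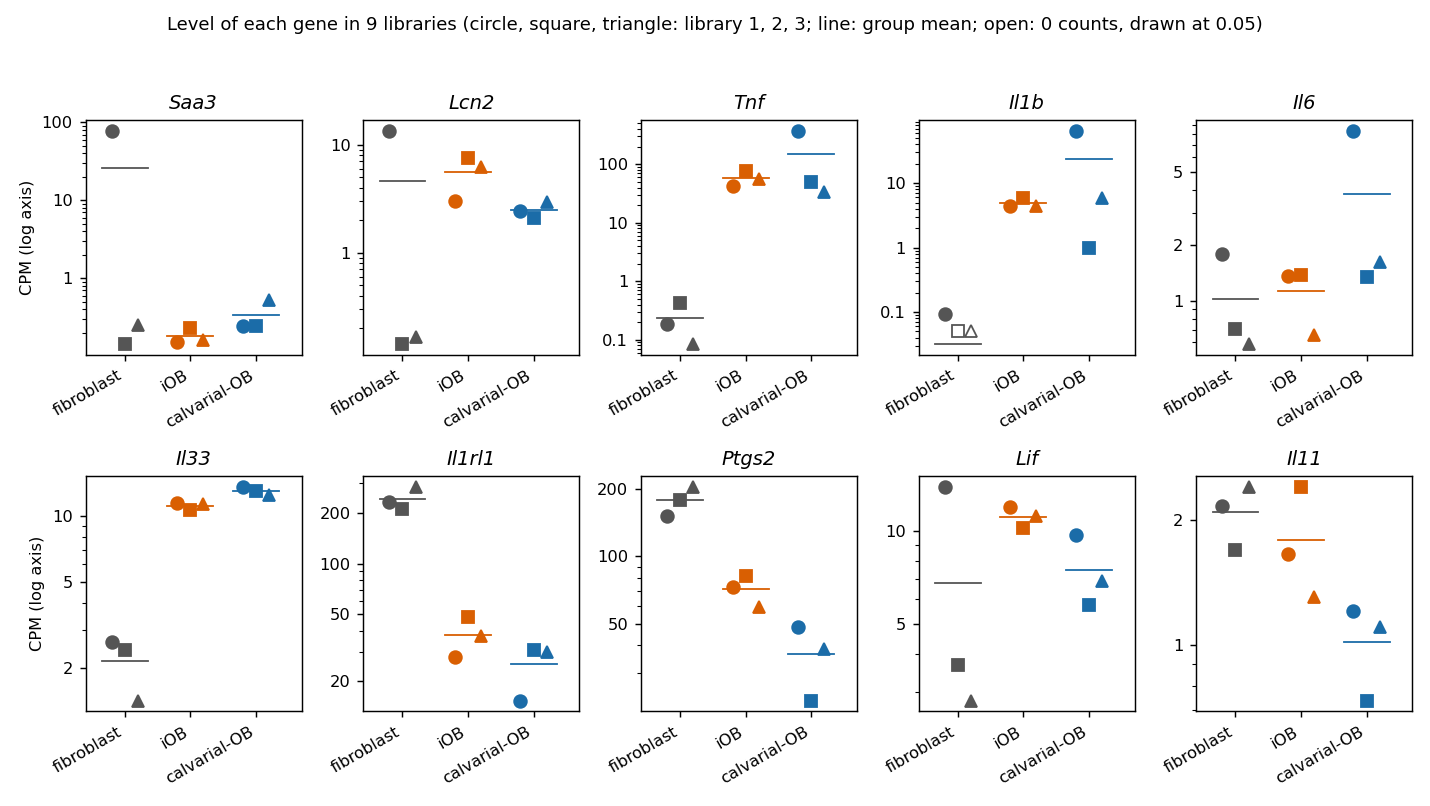
CPM of each of the 10 genes in each of the 9 libraries on log axes, with circle, square and triangle for libraries 1, 2 and 3, a line at each group's mean and open symbols, drawn at 0.05, for 0 counts. Saa3 reads 78.3 CPM in fibroblast library 1 and at most 0.521 in every other library, while Il33 and Il1rl1 separate fibroblasts from both osteoblast groups in all libraries.

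The acute-phase gene Saa3 encodes serum amyloid A3, the form of this lipid-binding protein made outside the liver. Its counts were 831, 1 and 3 in fibroblast libraries 1 to 3, 1, 2 and 1 in iOB, and 2, 2 and 8 in calvarial-OB. On the CPM scale that is 78.3, 0.142 and 0.249 in fibroblasts, 0.151, 0.229 and 0.164 in iOB, and 0.242, 0.245 and 0.521 in calvarial-OB. Fibroblast library 1 alone was high, and the other 8 libraries were near the level of single reads, so that fibroblasts overlap both other groups, while the iOB libraries lay just below the calvarial-OB libraries on 1 to 8 counts each. Summed over the group, Saa3 was 151-fold higher in fibroblasts than in iOB (95% Clopper-Pearson interval 58.6 to 554, for counting error only), on 835 against 4 counts. Without fibroblast library 1 the ratio was 1.12 (0.209 to 6.02), on 4 against 4 counts. Against calvarial-OB, Saa3 was 74.4-fold higher in fibroblasts with all libraries, while without fibroblast library 1 it was 1.80-fold higher in calvarial-OB (0.547 to 7.68). The summed ratios also moved without fibroblast library 3, to 252-fold over iOB and 125-fold over calvarial-OB, and without calvarial-OB library 3, to 115-fold. In a fit without the filter, over all 17982 genes, the edgeR log2 difference of Saa3 was −7.03 ± 1.92 (SE) in iOB (adjusted p = 0.010) and −6.10 ± 1.61 in calvarial-OB (0.0060), calls that rest on that 1 library. The liver forms Saa1 and Saa2 carried identical values in every library, at most 0.121 CPM, and cannot be told apart here.

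Lcn2 encodes lipocalin-2, which binds bacterial iron carriers and is also a hormone-like product of bone. It read 13.5, 0.142 and 0.166 CPM in fibroblast libraries 1 to 3, 3.02, 7.57 and 6.22 in iOB, and 2.42, 2.08 and 2.93 in calvarial-OB. Fibroblast library 1 lay above every osteoblast library and fibroblast libraries 2 and 3 lay below every one of them, so the groups overlap. The differences did not pass the edgeR test, at 0.26 ± 0.95 in iOB (adjusted p = 0.852) and −0.91 ± 1.00 in calvarial-OB (0.463). Without fibroblast library 1 they were 5.05 in iOB (adjusted p = 8.2e-05) and 3.89 in calvarial-OB (5.4e-04), the latter a change of sign. Summed counts of Lcn2 without that library were 36.8-fold higher in iOB (12.3 to 181) and 16.4-fold higher in calvarial-OB (5.43 to 81.4). All iOB libraries lay above all calvarial-OB libraries, at 1.16 ± 1.01 (adjusted p = 0.367), which became 1.16 with an adjusted p of 0.015 without fibroblast library 1 and of 0.022 in a fit of the 2 osteoblast groups alone. The gene of a lipocalin-2 receptor, Slc22a17, rose in both, by 1.89 ± 0.24 in iOB (adjusted p = 6.2e-05) and 1.47 ± 0.24 in calvarial-OB (2.6e-04).

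Of 20 other acute-phase genes listed, 15 were in the table and 9 were tested. In iOB 2 rose and 2 fell, and in calvarial-OB 3 rose and 3 fell, with medians of 0.40 and 0.28 on the log2 scale. Among all genes, 43.3% were called in iOB and 55.8% in calvarial-OB. Hp, haptoglobin, which binds free hemoglobin, read 3.58, 1.13 and 0.498 CPM in fibroblasts, 9.53, 12.2 and 12.3 in iOB, and 197, 218 and 234 in calvarial-OB, and rose by 2.68 ± 0.40 (adjusted p = 2.1e-04) and 6.94 ± 0.37 (4.9e-08). Cfb, complement factor B, rose by 2.19 ± 0.31 and 2.55 ± 0.31. Ptx3, a pentraxin of innate immunity, fell by 2.39 ± 0.28 on the log2 scale in iOB (2.9e-05) and by 2.14 ± 0.27 in calvarial-OB (4.0e-05). Serpina3n, a serine protease inhibitor, fell in calvarial-OB, at −1.84 ± 0.23 (2.8e-05), and was 0.40 ± 0.22 in iOB (0.157), with the 2 osteoblast groups differing by 2.24 ± 0.23 (1.2e-05). In iOB Serpina3n passed without fibroblast library 1 (0.68, adjusted p = 0.014). C3, the central complement component, read 192, 12.0 and 12.1 CPM in fibroblasts, 29.6, 48.0 and 38.6 in iOB, and 103, 70.1 and 90.9 in calvarial-OB. Its differences of −0.90 ± 0.80 (0.390) and 0.28 ± 0.77 (0.781) became 1.68 (1.9e-04) and 2.86 (3.1e-06) without fibroblast library 1. With both outlying libraries left out, the counts over the list were 6 higher and 2 lower in iOB, and 6 higher and 3 lower in calvarial-OB.

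Tnf, which encodes the cytokine TNF, was nearly unread in fibroblasts and rose in both osteoblast groups. It read 0.188, 0.425 and 0.0830 CPM in fibroblasts, 43.1, 75.5 and 55.3 in iOB, and 375, 49.0 and 33.5 in calvarial-OB. All osteoblast libraries lay above all fibroblast libraries, and calvarial-OB library 1 lay above the other 8. The differences were 8.07 ± 1.32 in iOB (adjusted p = 4.2e-04) and 9.45 ± 1.28 in calvarial-OB (6.2e-05). On 6 fibroblast counts in all, the summed ratio was 296-fold in iOB (136 to 808, on 1281 counts) and 625-fold in calvarial-OB (287 to 1705, on 4010). The iOB ratio became 451 without fibroblast library 2, and the calvarial-OB ratio became 193 without calvarial-OB library 1, 954 without fibroblast library 2 and 1055 without calvarial-OB library 3. Tnf did not differ beyond the test between iOB and calvarial-OB, at −1.38 ± 0.69 (0.116). That difference depended on calvarial-OB library 1: without it, Tnf was 0.56 higher in iOB (adjusted p = 0.046), while without calvarial-OB library 3 the difference was −1.86 (0.029). The macrophage markers of the same libraries moved in the same direction as Tnf against fibroblasts, and their part in the result was not tested.

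Il1b, which encodes interleukin-1 beta, read 0.0942, 0 and 0 CPM in fibroblasts, 4.39, 5.96 and 4.42 in iOB, and 65.1, 0.981 and 5.79 in calvarial-OB. The fibroblast libraries held 1 count in all and lay below every osteoblast library. The summed ratio was 150-fold in iOB (26.3 to 5968, on 108 counts) and 594-fold in calvarial-OB (106 to 23500, on 635 counts), with lower bounds of at least 32.1-fold and 127-fold where fibroblast library 1, which holds the 1 count, was left out and 3 counts over the group were taken as the floor. The iOB ratio became 89.0 without fibroblast library 3. The calvarial-OB ratio became 123 without calvarial-OB library 1, 353 without fibroblast library 3 and 989 without calvarial-OB library 3. By edgeR, Il1b rose by 6.72 ± 2.35 in iOB (adjusted p = 0.0365), a call lost when any 1 of the 6 libraries compared was left out (adjusted p = 0.057 to 0.112), while a fit of those 6 libraries alone gave 6.73 ± 0.54 (6.1e-06). In calvarial-OB it rose by 8.96 ± 1.90 (0.00171). The 2 osteoblast groups overlapped, with a difference of −2.24 ± 0.98 (0.0787) that passed without calvarial-OB library 2 (−2.80, 0.013) or library 3 (−2.73, 0.045) and was 0.46 without library 1. Its neighbour Il1a, interleukin-1 alpha, had 0 counts in all fibroblast libraries, 2.27, 1.83 and 0.491 CPM in iOB, and 0.490 and 0.326 in calvarial-OB libraries 2 and 3, with library 1 the highest of all.

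Il6 encodes interleukin-6, the main inducer of the acute-phase response. It read 1.79, 0.708 and 0.581 CPM in fibroblasts, 1.36, 1.38 and 0.654 in iOB, and 8.35, 1.35 and 1.63 in calvarial-OB. Calvarial-OB library 1 was high, and all 3 groups overlapped. Il6 did not pass the test in iOB, at 0.15 ± 0.83 (adjusted p = 0.904). It rose by 1.79 ± 0.70 in calvarial-OB (0.0444), and without calvarial-OB library 1 the difference was 0.53 (0.365). The call was also lost in a fit of those 2 groups alone (0.070) and without fibroblast library 2, fibroblast library 3 or any 1 iOB library. It was kept without fibroblast library 1 (2.50) and with both outlying libraries left out. The difference between the osteoblast groups, −1.65 ± 0.72 (0.0787), passed without calvarial-OB library 2 (−2.02, 0.042) or library 3 (−2.05, 0.042) and with DESeq2 (−1.72, 0.045).

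Il33 encodes interleukin-33, a nuclear cytokine released on cell damage, and Il1rl1 encodes its receptor ST2 as a membrane form and a soluble decoy, which these gene counts do not separate. The ligand rose and the receptor fell in both osteoblast groups. Il33 read 2.64, 2.41 and 1.41 CPM in fibroblasts, 11.5, 10.7 and 11.5 in iOB, and 13.7, 13.1 and 12.6 in calvarial-OB, so that the groups did not overlap and calvarial-OB was highest. It rose by 2.40 ± 0.22 in iOB (adjusted p = 5.1e-06) and 2.63 ± 0.22 in calvarial-OB (1.1e-06). Between iOB and calvarial-OB the difference in Il33, −0.23 ± 0.19 (0.334), did not pass the test.

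Il1rl1 read 233, 212 and 286 CPM in fibroblasts, 28.0, 48.4 and 37.5 in iOB, and 15.4, 30.6 and 29.9 in calvarial-OB. All fibroblast libraries lay above all others, and the 2 osteoblast groups overlapped. It fell by 2.68 ± 0.25 on the log2 scale in iOB (5.8e-06) and by 3.26 ± 0.26 in calvarial-OB (8.0e-07). The osteoblast groups differed by 0.58 ± 0.25 (0.0750), which passed without iOB library 1 (0.76, 0.036) and with DESeq2 (0.60, 0.033). Leaving out any 1 library kept the differences against fibroblasts between 2.17 and 2.60 for Il33 and between −2.90 and −2.50 for Il1rl1 in iOB. ST2 is well known from mast cells, and of 10 mast cell markers 7 were in the table and 2 were tested. Cpa3, mast cell carboxypeptidase, was at 0 in all 3 fibroblast libraries and Kit, the stem cell factor receptor, read at most 0.283 CPM there, while Gata2, a transcription factor of many lineages, read 11.9 to 13.4. The markers Cma1 and Hdc were above 0 in every fibroblast library, and all 7 together summed to 12.5 to 14.3 CPM. Of the 2 tested, 1 rose and 1 fell in iOB, and 0 rose and 1 fell in calvarial-OB. Among all genes, 43.3% were called in iOB and 55.8% in calvarial-OB.

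In RefSeq (GRCm38.p6) Il1rl1 lies in a cluster of interleukin-1 receptor family genes with Il1r1, Il1rl2, Il18r1 and Il18rap. The 3 tested neighbours also fell in both osteoblast groups. Il1r1, the signaling receptor of interleukin-1, fell by 1.45 ± 0.16 in iOB (adjusted p = 2.1e-05) and by 1.60 ± 0.16 in calvarial-OB (5.8e-06). Il1rl2, the receptor of interleukin-36, fell by 0.86 ± 0.20 (0.00463) and by 1.76 ± 0.21 (1.9e-05). Il18rap, the accessory chain of the interleukin-18 receptor, read 9.14, 6.09 and 10.6 CPM in fibroblasts, 1.36, 2.29 and 1.64 in iOB, and 0.363, 0.981 and 1.24 in calvarial-OB, and fell by 2.27 ± 0.35 (2.4e-04) and by 3.23 ± 0.36 (1.3e-05). Il18r1 was at most 0.484 CPM and was not tested. The neighbours of Tnf differed among themselves: the lymphotoxin genes Lta and Ltb read at most 0.123 and 0.260 CPM in any library, while Lst1, a gene of leukocytes, rose by 2.83 ± 0.49 (6.0e-04) and 3.53 ± 0.46 (4.5e-05). Pla2g4a, which lies next to Ptgs2, and Osm, which lies next to Lif, are described with those genes.

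**Figure D2:**
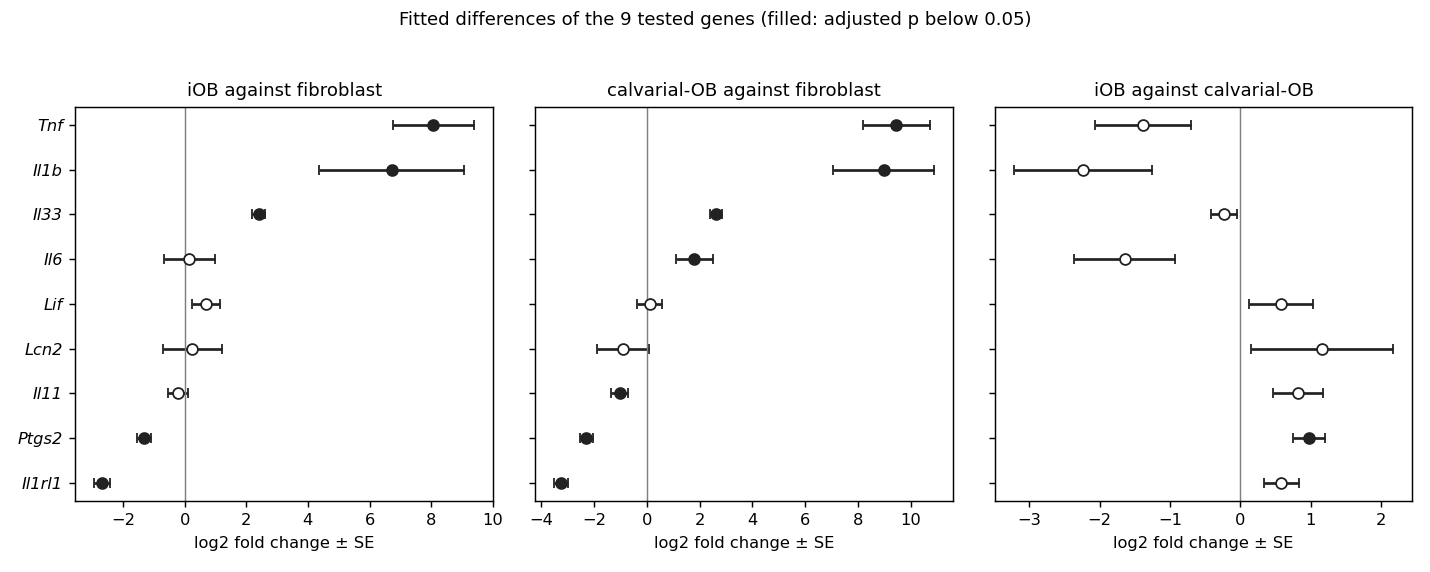
Log2 fold change with its standard error (bar) of each of the 9 genes tested, filled where the adjusted p was below 0.05, for iOB and calvarial-OB against fibroblasts and for iOB against calvarial-OB, from edgeR. Tnf, Il1b and Il33 lie to the right of 0 and Ptgs2 and Il1rl1 to the left in both comparisons with fibroblasts, and Tnf and Il1b carry the widest bars.

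Ptgs2 encodes the inducible cyclooxygenase. It read 151, 178 and 205 CPM in fibroblasts, 73.0, 82.0 and 59.4 in iOB, and 48.2, 22.6 and 38.5 in calvarial-OB. The groups did not overlap in any of the 3 comparisons, with fibroblasts highest and calvarial-OB lowest. It fell by 1.31 ± 0.22 on the log2 scale in iOB (adjusted p = 5.4e-04) and by 2.29 ± 0.23 in calvarial-OB (5.8e-06), and was 0.97 ± 0.23 higher in iOB than in calvarial-OB (0.00411). Without any 1 library the last difference stayed between 0.74 and 1.25. Over the tested members, groups did not overlap for 5 of 9 in iOB against fibroblasts (63.0% of all genes), 6 of 9 in calvarial-OB against fibroblasts (60.5%) and 5 of 9 between the osteoblast groups (55.5%).

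The prostaglandin pathway list held 14 genes, of which 13 were tested. In iOB 5 rose and 1 fell, and in calvarial-OB 6 rose and 3 fell, with medians of 0.08 and 0.30 on the log2 scale. The shares of all genes called were 43.3% and 55.8%. Pla2g4a, the phospholipase that frees the arachidonic acid used by cyclooxygenases, fell with Ptgs2, by 0.95 ± 0.12 (adjusted p = 5.8e-05) and by 1.40 ± 0.12 (1.7e-06). Ptges, the inducible prostaglandin E synthase, was −0.16 ± 0.13 in iOB (0.366) and fell by 0.87 ± 0.14 in calvarial-OB (1.9e-04). Ptgis, prostacyclin synthase, read 0.659, 1.13 and 2.49 CPM in fibroblasts, 51.6, 31.8 and 32.6 in iOB, and 147, 92.2 and 76.4 in calvarial-OB, and rose by 4.68 ± 0.41 (3.1e-06) and 6.12 ± 0.40 (2.0e-07). Tbxas1, thromboxane synthase, rose by 5.96 ± 0.70 and 6.77 ± 0.65. The gene of a prostaglandin E2 receptor, Ptger4, rose by 1.52 ± 0.21 (1.4e-04) and 1.11 ± 0.21 (8.9e-04). Hpgd, which inactivates prostaglandins, was −0.01 in iOB and fell by 1.06 ± 0.12 in calvarial-OB.

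Lif encodes LIF, and it read 13.8, 3.68 and 2.82 CPM in fibroblasts, 11.9, 10.2 and 11.1 in iOB, and 9.69, 5.76 and 6.90 in calvarial-OB. Fibroblast library 1 was the highest of the 9, fibroblast libraries 2 and 3 were the lowest, and the iOB libraries all lay above the calvarial-OB libraries. Neither difference passed the edgeR test, at 0.69 ± 0.46 in iOB (adjusted p = 0.255) and 0.11 ± 0.46 in calvarial-OB (0.858). Without fibroblast library 1 both did, at 1.78 (4.6e-04) and 1.21 (0.0038). The difference of Lif between the osteoblast groups was 0.58 ± 0.46 (0.324), and it passed with both outlying libraries left out (0.78, 0.0047).

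Il11 encodes interleukin-11. It read 2.17, 1.70 and 2.41 CPM in fibroblasts, 1.66, 2.41 and 1.31 in iOB, and 1.21, 0.735 and 1.11 in calvarial-OB. Calvarial-OB lay below both other groups, which overlapped. Il11 was −0.21 ± 0.33 in iOB (0.638) and fell by 1.03 ± 0.34 in calvarial-OB (0.0206). That call was lost with DESeq2 (0.085) and without fibroblast library 1 (0.052), fibroblast library 3 (0.084) or calvarial-OB library 2 (0.073). The osteoblast groups differed by 0.82 ± 0.36 (0.0753). Il11 rested on 6 to 29 counts per library.

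The receptors and decoys of the member cytokines numbered 12, of which 11 were tested. In iOB 4 rose and 7 fell, and in calvarial-OB 5 rose and 6 fell, with medians of −0.69 and −0.57 on the log2 scale. Among all genes, 43.3% were called in iOB and 55.8% in calvarial-OB. The gp130 gene Il6st, the chain shared by interleukin-6, interleukin-11 and LIF, read 2322, 2266 and 2029 CPM in fibroblasts, 562, 883 and 735 in iOB, and 232, 226 and 233 in calvarial-OB. It fell by 1.60 ± 0.15 (adjusted p = 4.3e-06) and by 3.26 ± 0.15 (2.8e-08). Lifr, the LIF receptor, read 83.3, 85.0 and 61.1 CPM in fibroblasts, 1275, 774 and 882 in iOB, and 136, 135 and 125 in calvarial-OB. It rose by 3.68 ± 0.20 in iOB (1.1e-07) and by 0.79 ± 0.18 in calvarial-OB (0.00277), and the 2 osteoblast groups differed by 2.89 ± 0.19. All iOB libraries thus lay above all calvarial-OB libraries for Lifr, and below all fibroblast libraries for Il6st.

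Il6ra, the interleukin-6 receptor, rose by 1.21 ± 0.32 (adjusted p = 0.00852) and 1.98 ± 0.30 (1.5e-04). Il11ra1, the interleukin-11 receptor, rose by 1.49 ± 0.17 in calvarial-OB (1.8e-05). In iOB it rose by 0.46 ± 0.17 (0.0466), a call lost without any 1 fibroblast library, iOB library 2, iOB library 3 or calvarial-OB library 2 (0.053 to 0.200). Osmr, the oncostatin M receptor, fell by 1.06 ± 0.12 and by 1.90 ± 0.13, while Osm, its ligand, rose by 5.08 ± 0.78 (2.5e-04) and 5.82 ± 0.73 (3.6e-05) from at most 0.283 CPM in fibroblasts.

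On the interleukin-1 side, Il1rap, the accessory chain used by both interleukin-1 and interleukin-33 receptors, fell by 0.83 ± 0.19 (adjusted p = 0.00457) and by 0.66 ± 0.19 (0.0104). The second call was lost with both outlying libraries left out (−0.41, 0.080). Il1rn, the interleukin-1 receptor antagonist, read 33.8, 39.5 and 37.7 CPM in fibroblasts, 12.9, 23.9 and 21.3 in iOB, and 50.1, 90.8 and 83.3 in calvarial-OB. It fell by 0.93 ± 0.24 in iOB (0.00844) and rose by 1.02 ± 0.23 in calvarial-OB (0.00232), with a difference of −1.95 ± 0.24 between them (5.0e-05). The decoy Il1r2 was at most 1.41 CPM and was not tested. Of the TNF receptors, Tnfrsf1a fell by 0.41 ± 0.11 (0.00901, and 0.068 without fibroblast library 3) and by 0.57 ± 0.11 (7.4e-04), and Tnfrsf1b fell by 1.84 ± 0.27 in calvarial-OB (1.2e-04). The fall of Tnfrsf1b in iOB, by 0.69 ± 0.26 (0.0494), was lost without any 1 of the fibroblast or iOB libraries and without calvarial-OB library 3 (0.063 to 0.162), and also with upper-quartile scaling (0.056) and with no filter (0.052).

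Among 20 NF-kB subunits and feedback targets, all tested, 4 rose and 2 fell in iOB and 7 rose and 2 fell in calvarial-OB, with medians of 0.36 and 0.14 on the log2 scale. The shares of all genes called were 43.3% and 55.8%. Icam1, an adhesion molecule, read 15.2, 5.10 and 6.72 CPM in fibroblasts, 49.6, 62.6 and 49.7 in iOB, and 99.0, 30.8 and 27.1 in calvarial-OB, and rose by 2.56 ± 0.50 (adjusted p = 0.00138) and 2.50 ± 0.49 (0.00106). Traf1, an adaptor of TNF receptors, was 1.40 ± 0.68 in iOB (0.117, and 0.028 with both outlying libraries left out) and rose by 3.51 ± 0.54 in calvarial-OB (1.8e-04). Vcam1, another adhesion molecule, was −0.18 ± 0.20 in iOB (0.507) and fell by 1.38 ± 0.21 in calvarial-OB (1.5e-04). Nfkbie, an inhibitor of NF-kB, rose by 0.92 ± 0.30 (0.0255) and 1.26 ± 0.29 (0.0028); the first call was lost without fibroblast library 2 (0.082), fibroblast library 3 (0.096), iOB library 2 (0.087) or iOB library 3 (0.051).

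The feedback inhibitors Nfkbia and Tnfaip3 were highest of their groups in the 2 outlying libraries. Nfkbia, which encodes I-kappa-B alpha, read 89.1, 23.9 and 21.6 CPM in fibroblasts, 130, 182 and 113 in iOB, and 599, 94.1 and 87.6 in calvarial-OB. It was 1.65 ± 0.72 in iOB (adjusted p = 0.0821), which passed without fibroblast library 1 (2.64, 0.018) or calvarial-OB library 1 (1.69, 0.0044) and in a fit of the 2 groups alone (1.69, 0.011), and rose by 2.52 ± 0.73 in calvarial-OB (0.0112), which was lost without calvarial-OB library 1 (0.99, 0.074). Tnfaip3, the ubiquitin-editing inhibitor A20, read 21.8, 4.11 and 5.14 CPM in fibroblasts, 72.7, 105 and 66.8 in iOB, and 247, 14.5 and 15.8 in calvarial-OB. Its rises of 2.95 ± 0.99 (0.0307) and 3.11 ± 0.99 (0.0185) were lost without fibroblast library 2 or 3, the first also without iOB library 1 or 2 and the second also without calvarial-OB library 1 (0.50, 0.399). With both outlying libraries left out, 13 of the NF-kB list rose and 2 fell in iOB, and 9 rose and 2 fell in calvarial-OB.

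The gp130 and STAT3 list of 21 genes, all tested, held 8 that rose and 3 that fell in iOB, and 6 that rose and 5 that fell in calvarial-OB, with medians of 0.44 and 0.19 on the log2 scale. Among all genes, 43.3% were called in iOB and 55.8% in calvarial-OB. Cebpa, a C/EBP family factor, rose by 0.51 ± 0.13 (adjusted p = 0.00778) and 1.64 ± 0.13 (7.2e-07), and Jak1, the kinase bound to gp130, fell by 0.43 ± 0.11 (0.00589) and by 1.11 ± 0.11 (3.9e-06). Socs3, the inhibitor induced through STAT3, read 56.3, 48.7 and 47.6 CPM in fibroblasts, 221, 217 and 131 in iOB, and 311, 41.6 and 60.2 in calvarial-OB. It rose by 1.90 ± 0.58 in iOB (0.0196), a call lost without fibroblast library 2 or 3 or iOB library 1 or 2 (0.051 to 0.066), and was 1.43 ± 0.57 in calvarial-OB (0.0514), which passed without calvarial-OB library 2 (1.89, 0.010) or library 3 (1.83, 0.025) and, with all libraries kept, with upper-quartile scaling (1.52, 0.041) or no filter (1.45, 0.036). Cebpb and Cebpd, the C/EBP factors of the acute phase, were −0.34 ± 0.36 (0.467) and −0.47 ± 0.36 (0.317) in iOB, and 0.06 ± 0.35 (0.903) and 0.71 ± 0.34 (0.0977) in calvarial-OB. Without calvarial-OB library 1, Cebpb was −0.66 in calvarial-OB (0.0055) and Cebpd −0.43 in iOB (0.020, and 0.025 in a fit of the 2 groups alone), and without calvarial-OB library 2 or 3 Cebpd was 1.02 (0.028) or 0.99 (0.044) in calvarial-OB. The list count in calvarial-OB ran from 3 to 8 higher over all alternatives, and in iOB from 7 to 12 higher.

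The inflammasome and interleukin-1 release list also holds Il1a, Il18, adaptors and kinases of receptor signaling, and endotoxin sensors. Its genes were called higher in 7 of 15 in iOB, with 0 lower, and in 8 of 15 in calvarial-OB, with 1 lower. Of all genes, 22.7% were higher and 20.6% lower in iOB, and 28.4% and 27.4% in calvarial-OB. The list's medians were 1.02 and 0.82 on the log2 scale. Nlrp3, the inflammasome sensor, read 0.471, 0.425 and 0.249 CPM in fibroblasts, 40.5, 46.4 and 35.5 in iOB, and 90.6, 12.7 and 13.7 in calvarial-OB, and rose by 6.73 ± 0.98 (adjusted p = 1.7e-04) and 6.65 ± 0.98 (1.2e-04). The adaptor Pycard rose by 2.91 ± 0.31 and 4.32 ± 0.29, and the protease Casp1 by 1.15 ± 0.19 (4.0e-04) and 1.36 ± 0.18 (5.8e-05). Gsdmd, the pore through which interleukin-1 beta leaves the cell, rose by 1.21 ± 0.16 and 1.65 ± 0.16. Cd14, an endotoxin co-receptor found on macrophages, rose by 3.00 ± 0.39 and 3.71 ± 0.40, and Lbp, which delivers endotoxin to it, by 2.50 ± 0.28 and 2.68 ± 0.28. Many of these genes are also expressed by macrophages, whose summed markers were higher in the same groups, and the part of those cells in the counts was not tested.

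**Figure D3:**
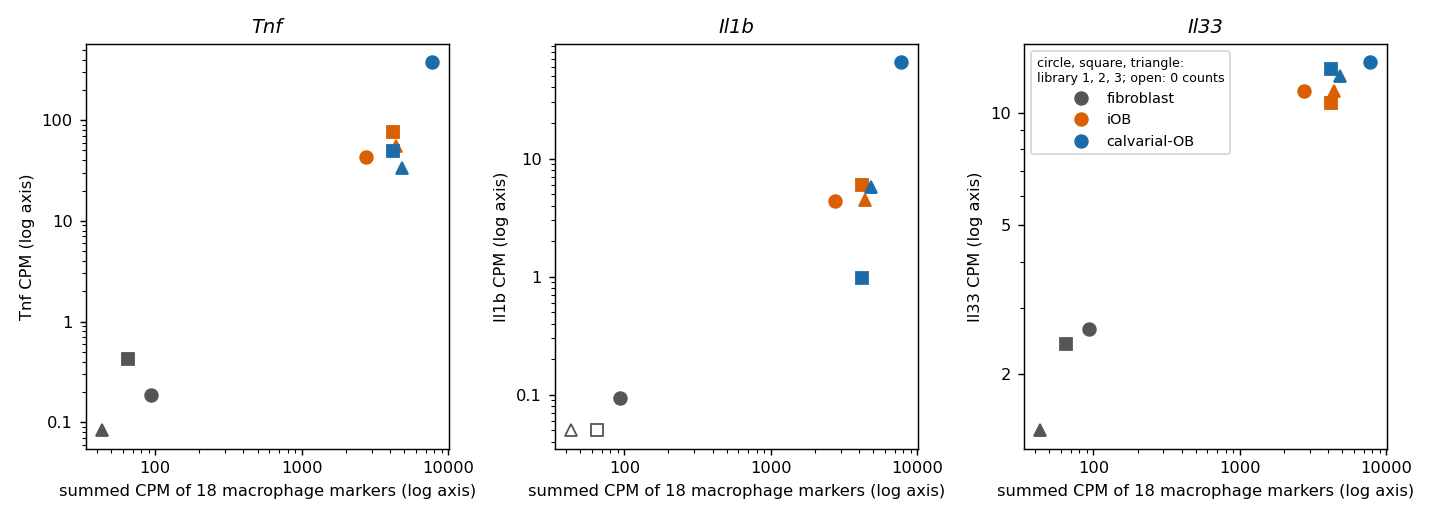
Summed CPM of the 18 macrophage markers (x axis) and CPM of Tnf, Il1b and Il33 (y axes) in each of the 9 libraries, all axes logarithmic, coloured by group, with open symbols for 0 counts. The fibroblast libraries lie at 43.3 to 93.7 summed CPM and all osteoblast libraries at 2735 or more, so the groups are separate clusters and no correlation was computed.

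Other cell types were checked by their markers. Of all genes, 22.7% were higher and 20.6% lower in iOB, and 28.4% and 27.4% in calvarial-OB. Of 12 neutrophil markers 7 were in the table and 2 were tested, Csf3r and Mmp8, both higher in iOB and in calvarial-OB. Csf3r, the receptor of granulocyte colony-stimulating factor, read 0 in all fibroblast libraries and 1.15 to 6.90 CPM in the others, while S100a8, an abundant neutrophil gene, was at most 0.302 CPM in any library. Of 9 T, NK and innate lymphoid cell markers 5 were in the table and 3 were tested, with 1 higher and 1 lower in iOB and 2 higher and 0 lower in calvarial-OB. Cd3e, Cd3d, Cd3g and Nkg7 were not in the table. Thy1, among those tested, is also on the fibroblast marker list, and whether lymphoid cells were present was not tested. Adipocyte markers rose in 7 of 9 and fell in 1 of 9 in iOB, and rose in 9 of 9 in calvarial-OB, and the number higher in iOB ran from 3 to 7 over all alternatives. Of 8 endothelial markers 7 were in the table and 4 were tested, with 0 higher and 2 lower in iOB and 1 higher and 0 lower in calvarial-OB. Of 8 epithelial markers 7 were in the table and 2 were tested, with 2 higher in iOB and 1 higher and 1 lower in calvarial-OB. Among the other epithelial markers, Krt5, Krt8 and Krt15 were at 0 in every iOB library. Fibroblast markers were 3 higher and 6 lower of 10 in iOB, and 4 higher and 5 lower in calvarial-OB.

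Fibroblast library 1 was set against the mean of the other 2 fibroblast libraries, with 1 count added to each before the ratio. Saa3 was 255-fold and Lcn2 51.0-fold higher in it, Lif 4.15-fold and Il6 2.49-fold. Il33 was 1.35-fold, Il11 1.04-fold, Il1rl1 0.936-fold and Ptgs2 0.790-fold, so these members did not share the pattern. By the ratio of the highest library to the next, Lcn2 ranked first, at 47.9-fold, among the 12616 tested genes with at least 10 counts in a fibroblast library, which leave out Saa3, and Lif ranked 23rd. Of those genes, 222 (1.76%) were over 2-fold higher in library 1 than in the mean of the others, and among 8 other acute-phase genes 7 were, with a median log2 ratio of 1.93. C3 was 15.8-fold, Hp 3.96-fold, Tnfaip3 4.61-fold and Nfkbia 3.90-fold higher there. Steap4, an iron reductase, at 17.9-fold and Cp, ceruloplasmin, at 5.36-fold are named after their values were seen. Without library 1, Steap4 went from −1.76 to 1.02 in iOB (adjusted p = 0.128 and 0.014), and without fibroblast library 3 it was −2.25 (0.038). Over 2-fold were also 7 of 19 NF-kB genes and 2 of 13 macrophage markers, and 0 of the receptor, prostaglandin, gp130 and inflammasome lists. The ribosomal RNA precursor Rn45s took 2.27% of counts in library 1 and 8.39% and 10.9% in the other 2, and its part in these values was not tested.

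Calvarial-OB library 1 stood apart for other members. Il1b was 18.7-fold, Tnf 9.07-fold and Il6 5.36-fold higher in it than in the mean of the other 2 libraries. Ptgs2 was 1.58-fold, Lif 1.53-fold, Il11 1.31-fold, Il33 1.07-fold, Lcn2 0.978-fold and Il1rl1 0.511-fold. Il1b, Tnf and Il6 ranked 8th, 16th and 34th of 13141 genes by the ratio of the highest library to the next, at 11.1, 7.63 and 5.01. Beside them Il1a was 20.3-fold, Tnfaip3 16.3-fold, Nfkbia 6.58-fold, Socs3 6.10-fold and Osm 3.34-fold higher. Over 2-fold were 508 of all genes (3.87%), 6 of 20 NF-kB genes, 7 of 21 gp130 genes, 5 of 15 inflammasome genes, 5 of 18 macrophage markers and 0 of 9 other acute-phase genes. So were 2 of 2 neutrophil markers, 2 of 4 endothelial markers, 2 of 11 receptors and decoys, 1 of 13 prostaglandin genes and 1 of 3 lymphoid markers. The 2 libraries thus differed from their groups in different members: Saa3, Lcn2 and Lif in the fibroblast library, Il1b and Tnf in the calvarial-OB library, and Il6 over 2-fold in both.

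**Figure D4:**
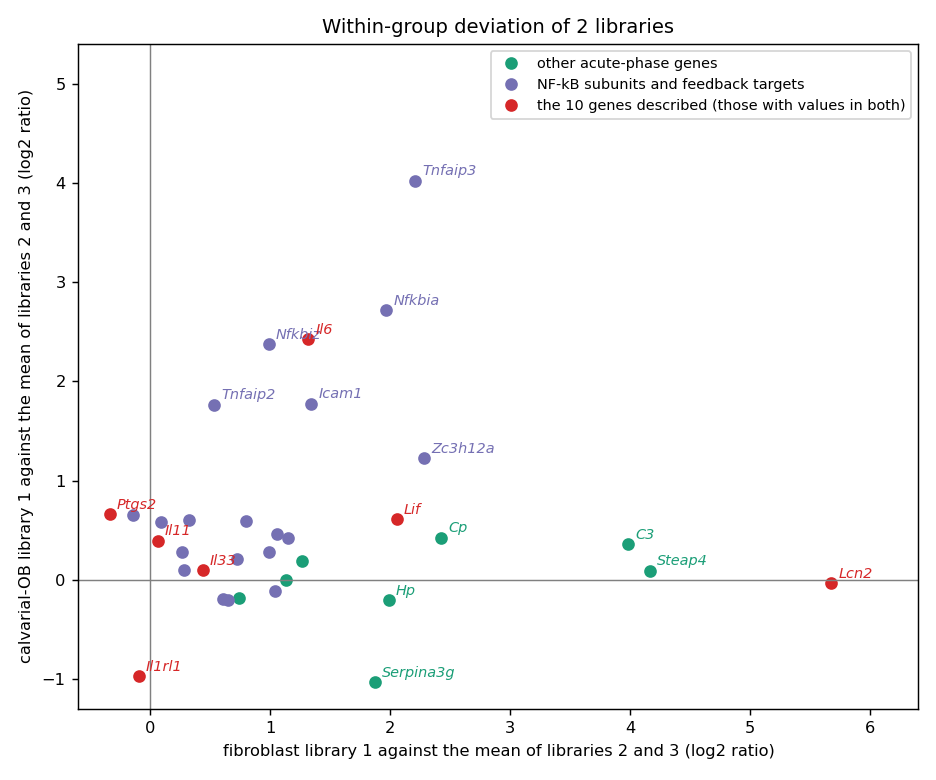
Log2 ratio of library 1 to the mean of the other 2 libraries of its group, with 1 count added, in fibroblasts (x axis) and calvarial-OB (y axis), 1 point per gene with a value in both, coloured as members, other acute-phase genes or NF-kB genes; Saa3, Tnf and Il1b lack a value on 1 axis. Lcn2 lies farthest to the right (5.67 in fibroblasts) near 0 on the y axis, Tnfaip3 lies highest, and Il6 (1.32 and 2.42) is the member over 2-fold on both axes.

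For each tested member with a mean of at least 10 counts, which leaves out Saa3, the 2 genes most like it in log2 CPM over the 9 libraries were found among 6718 or 6719 genes at or above the median level. The libraries fall into 3 groups, so such correlations describe the group pattern. Tnf was most like Fcgrt, an antibody receptor (Pearson r = 0.990), and Csf1r (0.989), and 107 genes exceeded 0.95 with it. Il33 was most like Adam23 (0.994) and Nckap1l (0.993), Il1rl1 like Hp1bp3 (0.990) and Nrd1 (0.989), and Ptgs2 like Sptbn1 (0.987) and Ap3b1 (0.986). Il1b was most like Mtmr10 (0.981) and Cflar (0.980). Lcn2, Lif and Il6 had few like genes: Lcn2 was most like Ifngr2 (0.970) and C1rb (0.904), Lif like C1rb (0.966) and Ablim1 (0.929), and Il6 like Pnrc1 (0.943) and Gadd45b (0.920), with 1, 1 and 0 genes above 0.95. Il11 was most like Strbp (0.947) and Cd99l2 (0.931).

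The authors' deposited tables give their own fold changes against fibroblasts for iOB and for iOB GFP+ cells. The labels name 1 group of fibroblast RNA libraries, so the 2 comparisons are not taken as independent. Which libraries entered the iOB GFP+ comparison was not checked. In the authors' deposited table for iOB, 8 members carry an adjusted p, of which 1 was higher and 2 were lower, beside 34.9% called of 16208 genes, 19.9% higher and 15.0% lower. In the authors' deposited table for iOB GFP+, 6 members carry one, of which 0 were higher and 2 were lower, beside 45.5% called of 16328 genes, 23.7% higher and 21.7% lower. By the authors' deposited tables Il1rl1 was −2.60 ± 0.23 (SE) in iOB (adjusted p = 1.5e-27) and −5.33 ± 0.44 in iOB GFP+ (2.8e-32). Ptgs2 was −1.26 ± 0.22 (1.8e-07) and −2.52 ± 0.38 (5.8e-10) in the authors' deposited tables. Il33 was 2.35 ± 0.27 in iOB (5.2e-17) and 0.32 ± 0.98 in iOB GFP+ (0.83) by the authors' deposited tables, and the difference between the 2 was not tested. The receptor and Ptgs2 were thus lower in both, and Il33 was called in the unsorted cells and not in the sorted ones.

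Several members have no p in these tables. Saa3 and Tnf are among 30 of 17982 genes without a p in the authors' deposited iOB table, with fold changes of −2.72 ± 0.78 and 4.20 ± 0.71. Base means there matched those of a DESeq2 fit of all 9 libraries within 1% for 100% of genes. Cook's distance, the pull of 1 library on that fit, was 22.6 for Saa3 in fibroblast library 1 (cutoff 9.78). For Tnf it was at most 6.24, in calvarial-OB library 1. Saa3 is 1 of 13 genes without a p in that DESeq2 fit, and all 13 also lack one in the authors' deposited iOB table. Why the p-values are missing was not tested. Saa3, Lcn2, Il1b and Tnf are among 377 of 17737 genes without one in the authors' deposited iOB GFP+ table, at −3.88 ± 1.08, −0.90 ± 1.07, 2.87 ± 1.08 and 3.69 ± 1.05. Of the rest, the authors' deposited tables give Il6 0.14 ± 0.61 in iOB and 0.27 ± 0.71 in iOB GFP+, Il11 −0.18 ± 0.44 and −0.76 ± 0.50, and Lif 0.67 ± 0.41 and 0.49 ± 0.52, none of them called. In the authors' deposited iOB table, Il1b was 1.81 ± 0.78 (adjusted p = 0.058) and Lcn2 0.18 ± 0.78 (0.90). Fibroblast library 1 is among the 9 libraries whose base means matched, and no deposited value leaves it out. By edgeR without that library, Lcn2 and Lif in iOB passed the test, at 5.05 and 1.78. The Tnf values of 4.20 in the authors' deposited table and 8.07 by edgeR are for the same comparison, and whether the authors' values were shrunken is not given in the sources used here.

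**Figure D5:**
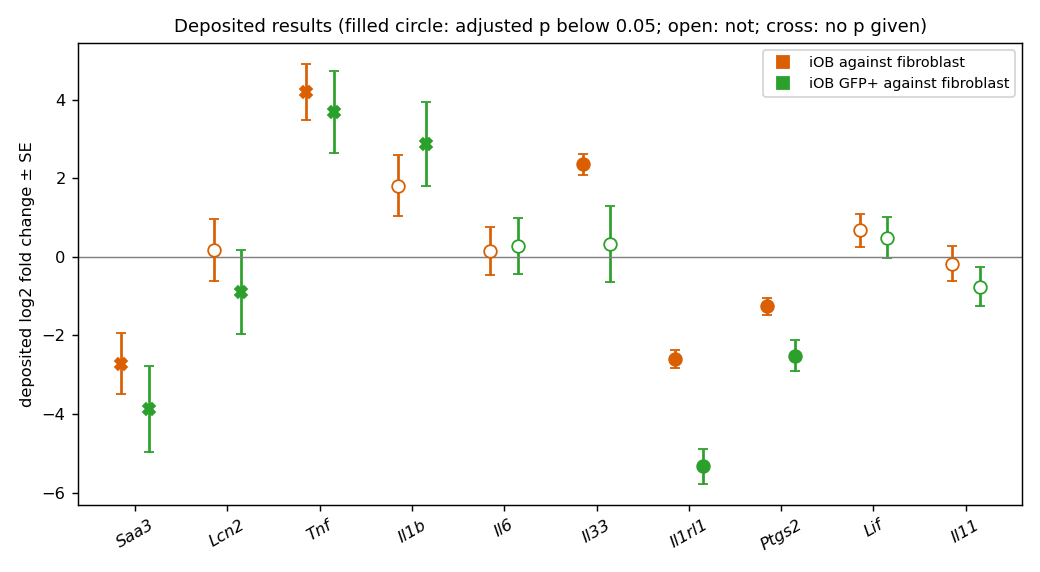
The authors' deposited log2 fold changes for the 10 genes, iOB and iOB GFP+ against fibroblasts, as filled circles where the adjusted p was below 0.05, open circles where it was not, and crosses where no p is given; bars are standard errors. Il1rl1 reads −2.60 and −5.33 and Ptgs2 −1.26 and −2.52, while Il33 reads 2.35 in iOB and 0.32 in iOB GFP+.

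The receptors in the authors' deposited iOB GFP+ table, 11 with an adjusted p, held 2 higher and 7 lower. Of all genes with an adjusted p there, 23.7% were higher and 21.7% lower. In the authors' deposited table Il6st was −2.76 ± 0.23 (adjusted p = 4.1e-31), Lifr 4.80 ± 0.23 (9.5e-95), Il1r1 −2.90 ± 0.39 (7.0e-13) and Slc22a17 2.59 ± 0.20. Il11ra1 was −0.90 ± 0.35 (0.025) in the authors' deposited iOB GFP+ table. Pla2g4a was −1.71 ± 0.19, Ptges −1.56 ± 0.49 (0.0040) and Ptgis 7.43 ± 0.41 in the authors' deposited iOB GFP+ table. Socs3 was 3.05 ± 0.24 (6.6e-36), Tnfaip3 2.44 ± 0.76 (0.0039) and Nfkbia 1.55 ± 0.71 (0.062) in the authors' deposited iOB GFP+ table. Of the 18 macrophage markers, 17 carry no adjusted p there. All 18 have a fold change in the authors' deposited iOB GFP+ table, with a median log2 value of 3.64 beside 0.04 for all genes. Their part in the values of sorted cells was not tested. The exception in the authors' deposited table is Fcer1g, at 4.84 ± 0.62 (9.6e-14), and Nlrp3, at 4.21 ± 1.01, has no p either. Of 15 inflammasome genes 12 carry an adjusted p in the authors' deposited iOB GFP+ table, with 2 higher and 2 lower, and Casp1 was 0.29 ± 0.38 (0.59).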

How the data were processed

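RNA libraries of 3 groups with 3 libraries each were compared, on the counts per gene that the authors deposited, 5646299 to 15023771 per library, whose number limits the precision of low genes. STAR 2.4.2a, Bowtie2, DESeq2 and the build mm9 are named with no role, per the submitters' processing notes; the read counter, the annotation and the use of strand are not given in the sources used here. The authors' deposited tables of 2 comparisons hold a base mean (a signal of normalized counts), the log2 fold change and the error of it, their ratio (a score), and raw and adjusted p-values. Here, edgeR 4.0.16 (R 4.3.3) fitted all 9 libraries with TMM scaling, filterByExpr (13438 of 17982 genes) and group as the only term, and glmQLFTest gave p-values, adjusted by Benjamini-Hochberg over all genes and called below 0.05. CPM are counts scaled to TMM-adjusted library totals, fold changes are given as log2 differences ± SE, and no level is scaled to gene length. For edgeR the SE is the absolute log2 difference divided by the square root of its F statistic. The SE of the authors' values is their own, so the 2 kinds are not the same quantity. Ratios of summed counts carry 95% Clopper-Pearson intervals. The script was tested on simulated data. Alternatives were DESeq2 1.42.0, upper-quartile scaling, no filter, 2-group fits, a replicate block, no Rn45s and each library left out; list genes and list counts were run through the same ones. The members and the lists were chosen with earlier results of these data known. All members are named; from each list, up to 4 genes with the smallest adjusted p against fibroblasts and the stated partners of the members, and any gene beyond that was chosen after its values were seen. The likeness rule took 2 genes per member. Gene order and promoters come from RefSeq, GRCm38.p6, by symbol. The methylation table was not used here, as no genome of its build was given.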

Additional observations from a re-analysis of the deposited data

How the results depend on the processing

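Il33, Il1rl1 and Ptgs2 kept their calls and directions against fibroblasts under every alternative tried, and so did Tnf. With 1 library left out at a time, 2 to 4 members rose and 2 fell in iOB against fibroblasts, 3 to 6 rose and 2 to 3 fell in calvarial-OB against fibroblasts, and 1 to 2 were higher and 0 to 3 lower in iOB than in calvarial-OB. All genes called ran from 4717 to 6729, 6580 to 7825 and 5435 to 7205. Lcn2 in calvarial-OB against fibroblasts ran from −1.50 to 3.89 with 1 library left out, reversed to 3.89 without fibroblast library 1, and was 3.93 with both outlying libraries left out. Tnf in iOB against calvarial-OB ran from −1.86 to 0.56, reversed to 0.56 without calvarial-OB library 1. In each the sole change was the library left out. With both left out, 5 members rose in iOB against fibroblasts and 3 were higher in iOB than in calvarial-OB. Those counts are a description only, since over all alternatives the genes called reached 6957, 8003 and 7351 in the 3 comparisons. Between the osteoblast groups DESeq2 called 2 members higher (Ptgs2 and Il1rl1) and 1 lower (Il6), and a fit of those 2 groups called 2 higher. In a fit of calvarial-OB and fibroblasts alone, 2 members were called higher: Il6 missed the threshold and Il1b did not pass the filter. Deviations of same-numbered libraries correlated at −0.15 to 0.15, beside −0.20 to 0.15 for differently numbered ones, so pairing by replicate number was neither shown nor excluded. With the number as a block, 5614, 7364 and 6303 genes were called in the 3 comparisons. In that fit iOB against calvarial-OB had 2 members higher (Ptgs2 and Il1rl1) and 1 lower (Il6). Of the named list genes against fibroblasts, the block ended the calls of Il11ra1 (0.46, adjusted p = 0.058) and Tnfrsf1b (−0.64, 0.055) in iOB and brought those of Nfkbia (2.14, 0.0039) and Il1a (0.0077) in iOB and Kit (0.044) in calvarial-OB past the threshold. Saa3 failed the filter and was tested only in the fit without it. A group left with 2 libraries shares the spread of the others. Depth limits Saa3, Il1b, Tnf, Il6 and Il11, whose lowest group held few counts. Leaving out both libraries was chosen after the data were seen.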
